A study of Mus musculus with 3 samples.

Results

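*Arpp21* (ENSMUSG00000032503.18) is 1 gene of 21951 protein-coding genes in the annotation, and the open chromatin of its locus was mapped in 4 lines of mouse pre/pro-B cells transformed by BCR-ABL(p185). The gene was picked from these same peak lists, for a strong intronic region with a peak in both wildtype (WT) lists and in neither K43M list, so the presence and absence of peaks there is a description and was not tested. Chromatin accessibility had been measured by ATAC-seq, an assay that uses a transposase to tag accessible DNA with sequencing adapters, and each library was deposited as a list of peaks. The WT lines came from bone marrow of Cdk6 +/+ C57BL/6 mice and the K43M lines from mice with the kinase-inactive K43M allele of CDK6 on both copies (Cdk6 KM/KM). All lines, of both genotypes, carried the BCR-ABL(p185) oncogene, introduced by retroviral transduction together with GFP, and had grown out in culture. There were 2 lines per genotype and 1 library per line, so a difference between genotypes and a difference between independently transformed lines cannot be told apart, and fewer cells with an open site cannot be told apart from a less open site in every cell. WT replicate 2, K43M replicate 1 and K43M replicate 2 are named as in their labels. The list called WT unnumbered has no labelled sample of its own. The design text of the series counts it as the other WT line, taken from an earlier deposit and analysed anew. Counts without it are given for the joined regions and for the lists with a peak at the intronic region. The promoter counts, the ranks and the comparisons with other genes that need both WT lists are not given without it.

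*Arpp21* encodes a cAMP-regulated phosphoprotein that is a substrate of protein kinase A and is abundant in striatal neurons, where its phosphorylated form binds calmodulin. A long form of the protein, known from immature thymocytes, has an R3H domain, a fold that binds nucleic acid. An intron of the gene holds the microRNA gene *Mir128-2*. Regulatory DNA of a gene lies at its promoters and often in its introns, and a site in use by transcription factors is usually depleted of nucleosomes and therefore open to the transposase.

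On the mm10 build (GRCm38) the gene lies at chr9:112065091-112235938 on the minus strand and spans 170848 bp. The annotation (GENCODE release M21) gives it 31 transcripts with 26 different start positions. Of the protein-coding transcripts, Arpp21-223 starts farthest upstream, at position 112235018, and has 21 exons. It is called the main transcript, and distances below are counted from its start in the direction of transcription. The window examined was the gene body plus 300 kb on both sides, chr9:111765091-112535938, or 770848 bp.

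3 sequences carry the sites on which the description turns. The first is the 201 bp around the mean summit of the intronic region that led to the choice of the gene (chr9:112207884-112208084, plus strand), with matches to the E-box letters CAGCTG or CAGGTG in capitals. The next is the RefSeq promoter sequence (GRCm38.p6) of an internal start, 300 bases around it (chr9:112217302-112217601, minus strand), with E-box matches in capitals. The last is the mature microRNA that *Mir128-2* gives rise to, with its seed in capitals, taken from RefSeq.

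Intronic region: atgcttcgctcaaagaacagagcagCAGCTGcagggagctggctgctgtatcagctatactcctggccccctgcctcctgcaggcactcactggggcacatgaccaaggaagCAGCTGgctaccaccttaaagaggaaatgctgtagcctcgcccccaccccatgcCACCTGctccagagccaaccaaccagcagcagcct
Internal promoter: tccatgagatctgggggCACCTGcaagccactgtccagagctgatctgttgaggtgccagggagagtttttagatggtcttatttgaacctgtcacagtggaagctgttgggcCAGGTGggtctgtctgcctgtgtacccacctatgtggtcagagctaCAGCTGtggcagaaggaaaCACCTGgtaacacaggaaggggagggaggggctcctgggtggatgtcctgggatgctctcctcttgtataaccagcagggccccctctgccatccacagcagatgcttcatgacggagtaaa
miR-128-3p: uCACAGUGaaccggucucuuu

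The WT lists held peaks across the gene and the K43M lists held none in it. In WT unnumbered the gene body overlapped 11 peaks, and in WT replicate 2 it overlapped 9. There were 0 in K43M replicate 1 and 0 in K43M replicate 2. These peaks covered 5299 and 3505 bp of the gene in the WT lists. Over the whole window the counts were 11 and 10 for WT and 2 and 0 for K43M. The 2 peaks of K43M replicate 1 and 1 of the 10 in WT replicate 2 lay outside the gene. The complete lists held 33038, 34248, 39038 and 34752 peaks in the same order, so that the K43M lists were not the shorter ones.

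Peaks of the 4 lists that overlapped by at least 1 bp were joined, which gave 14 regions in the window. Of these, 6 regions (42.9%) had a peak in both WT lists and in neither K43M list, and all 6 lay in the gene body. Over the genome 4.51% of 50965 joined regions had this pattern. No region of the window had a peak in both K43M lists and in neither WT list (7.64% of all regions), and none had a peak in all 4 lists (41.2% of all regions). A peak in either K43M list was found in 2 of the 14 regions, against 83.4% of all regions. The other 8 regions (57.1%) had a peak in a single list, against 28.7% of all regions. Nothing was inferred from these shares, since the gene was selected for this pattern. Without WT unnumbered, 9 regions of the gene body had a peak in WT replicate 2 and in neither K43M list. Without WT replicate 2 the number was 11. Over the genome the share of regions with a WT peak only was then 11.5% and 11.4%, in the same order.

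**Figure D1:**
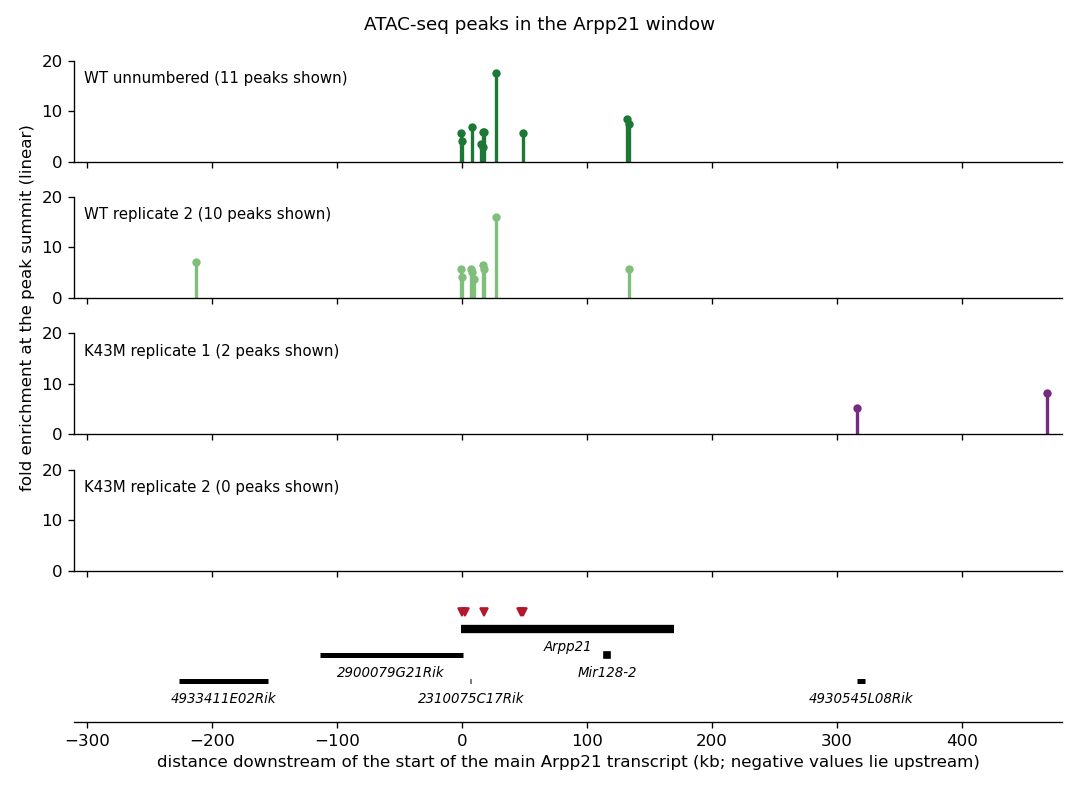
ATAC-seq peaks in the *Arpp21* window in each of the 4 lists. The horizontal axis gives the distance from the start of the main transcript in kb, and the vertical lines give the fold enrichment of each peak at its summit. Black bars are annotated genes (a square marks *Mir128-2*, and the small RNA genes *Gm27847* and *Gm24957*, with no peak in any list, are not drawn) and red triangles mark groups of *Arpp21* start positions. The WT lists hold 11 and 9 peaks inside the gene, and the K43M lists hold none.

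The intronic region had the highest fold enrichment in the gene in both WT lists. The gene was picked for the strength of this region, so its height and its rank are a description of the choice. It lay at chr9:112207721-112208442 (722 bp) in intron 1 of the main transcript, which runs from 112206345 to 112234309. Its mean summit was 27034 bp downstream of the main start and 9277 bp from the nearest annotated start. The fold enrichment of a peak is the ratio, as the authors deposited it, of the read ends at its summit to those of the background in that library, with 1 added to both. It was 17.5 in WT unnumbered and 16.0 in WT replicate 2, a mean of 16.8 ± 1.01 (SD, n = 2 lists). The peaks were 722 and 503 bp wide and their summits lay 44 bp apart. The -log10 q values were 82.3 and 59.5, which placed the peak at percentile 99.2 of all peaks in WT unnumbered and at percentile 96.1 in WT replicate 2. By the lower of both percentiles the region ranked 1 among the 2299 regions found in both WT lists only, and by the recovered number of read ends at the summit it ranked 4. The next regions in that order had 91.4 and 88.3. Every other peak in the gene had a fold enrichment of 8.45 or less.

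Of the 26 annotated starts, 14 had a peak within their promoter window (2000 bp before to 200 bp after the start) in at least 1 list, 10 had one in both WT lists and 0 in a K43M list. A promoter peak in both WT lists and in neither K43M list was found for 0.515% of the protein-coding genes. The starts form 5 groups in which neighbours lie at most 1000 bp apart. The most upstream group, from 112233626 to 112235938 with 8 transcripts including Arpp21-223, had 2 peaks in each WT list. The internal group from 112217261 to 112217351, with 5 transcripts, had 3 peaks in WT unnumbered and 2 in WT replicate 2. The most downstream group, from 112185769 to 112186093 with 5 transcripts, had 1 peak, in WT unnumbered. The group from 112231902 to 112232501 and the group from 112187647 to 112188474, to which 11 transcripts belong, had no peak in any list. Promoters with a peak in both WT lists were thus those of the upstream and the internal starts.

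At the upstream start the region chr9:112234671-112235730 held 2 peaks in each WT list, 1 that spanned the start and 1 upstream of it. The upstream one was the stronger, and it had a fold enrichment of 5.59 in WT unnumbered and 5.65 in WT replicate 2 (mean 5.62 ± 0.0457, SD, n = 2), and the one across the start had 4.06 and 4.12. In their lists these peaks were modest, with percentiles of 28.7 and 35.9 for the stronger one. The region also lies in *2900079G21Rik*, a long noncoding RNA gene on the opposite strand, so the peaks may belong to either gene.

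At the internal start the region chr9:112217105-112217692 had a fold enrichment of 5.76 in WT unnumbered and 5.71 in WT replicate 2 (mean 5.74 ± 0.0354, SD, n = 2). Its mean summit lay 10 bp from an annotated start. A second region 1142 bp from that start, at chr9:112218283-112218837, had 5.76 and 6.50 (mean 6.13 ± 0.526, SD, n = 2). Both regions lie within promoter windows of the internal start group, and their values differed between the regions by less than the larger of both spreads.

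2 further regions of intron sequence had a peak in both WT lists. In intron 1, chr9:112226400-112227557 had a fold enrichment of 6.91 in WT unnumbered and, at the stronger of 2 peaks, 5.70 in WT replicate 2 (mean 6.31 ± 0.857, SD, n = 2). It lay 8.08 kb downstream of the main start, in the promoter window of the long noncoding RNA gene *2310075C17Rik*. In intron 19, at 134 kb downstream of the main start, chr9:112100870-112101219 had 7.45 and 5.67 (mean 6.56 ± 1.26, SD, n = 2). Leaving aside the strongest region, the means of the other 5 ran from 5.62 to 6.56, a range smaller than the SD of the highest of them.

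**Figure D2:**
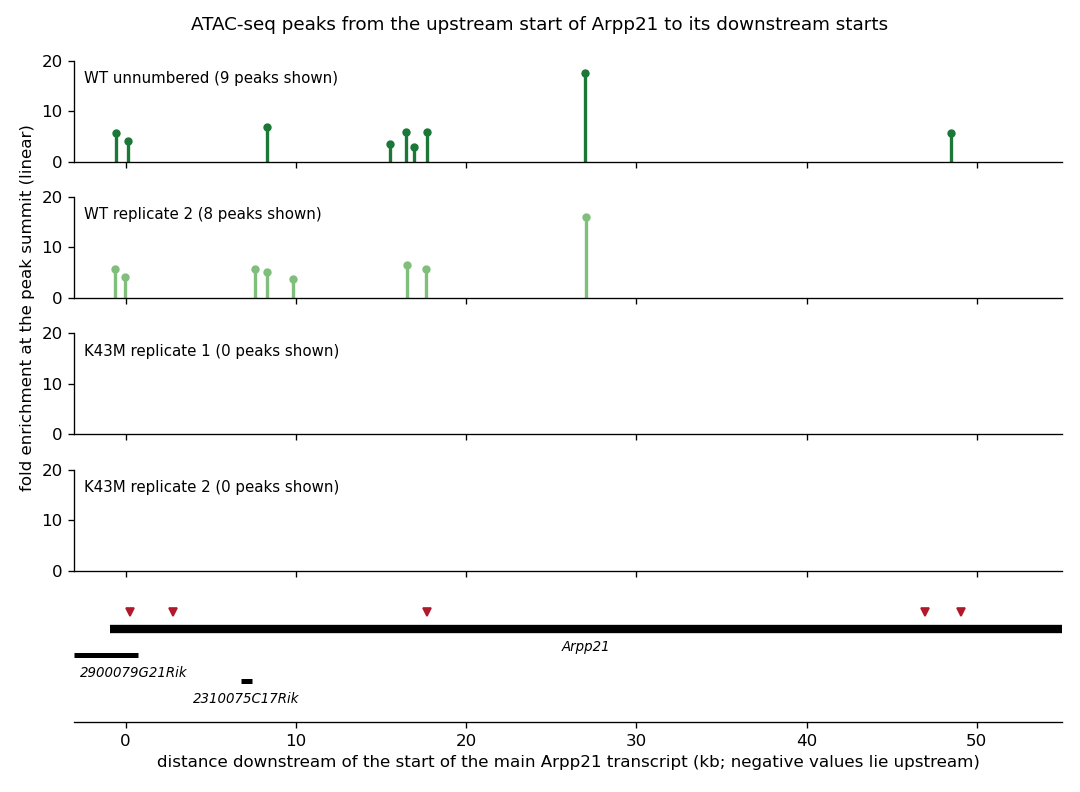
The same peaks from 3 kb before the main start of *Arpp21* to 55 kb after it. The axes are as in the map of the whole window, and red triangles mark the 5 groups of start positions. The strongest peak in both WT lists, with a fold enrichment of 17.5 and 16.0, lies 27.0 kb downstream of the main start, between the internal and the downstream starts.

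In the gene body 5 of 11 regions (45.5%) had a peak in 1 list only, in each case a WT list. Over the genome 28.7% of regions had a peak in 1 list only. WT unnumbered alone had the peak at 112102441, with a fold enrichment of 8.45 and 47 read ends at the summit, in intron 19 about as far along the gene as the region shared by both lists there. It also alone had those at 112186381 (5.74), 112217927 (2.88) and 112219385 (3.52). WT replicate 2 alone had the peak at 112225105 (3.76). The peak at 112217927 was near the bottom of its list, at percentile 2.41.

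Outside the gene 3 regions of the window had a peak, each in a single list. K43M replicate 1 had one at chr9:111767094-111767412 with a fold enrichment of 8.12, and one at chr9:111918691-111918892 with 5.20. The second of these lies just before the start of the long noncoding RNA gene *4930545L08Rik*. WT replicate 2 had a peak at chr9:112447619-112447920 with 7.03, within the long noncoding RNA gene *4933411E02Rik*. In K43M replicate 2 the window was empty. *Arpp21* is the only protein-coding gene of the window, and its other microRNA gene besides *Mir128-2*, *Gm27847*, had no peak in any list.

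Peak lists do not show the reads below the threshold of the peak caller, so the height that a site could have had in the K43M lists without a call was computed. The number of read ends at each summit (pileup) and the local background were recovered from the deposited fold enrichment and -log10 p. At the strongest region the pileup was 93 in WT unnumbered and 68 in WT replicate 2, over a local background of 4.38 and 3.30. At the 5 other shared regions it was 17 to 46 in WT unnumbered and 16 to 31 in WT replicate 2. The genome-wide background, which follows library depth, was 1.31, 1.13, 1.10 and 0.968 read ends per 200 bp in the order of the lists. With a local background raised over it as in the WT lists, a pileup of 11 at the strongest region would have been called in K43M replicate 1 and also in K43M replicate 2. Scaled by the genome-wide backgrounds, the WT pileups at this region corresponded to 78.5 and 66.1 in K43M replicate 1 and to 68.9 and 58.0 in K43M replicate 2. The lower of these was 6.01 times the smallest callable pileup in K43M replicate 1 and 5.27 times that in K43M replicate 2. For the other 5 regions the same ratio ran from 1.36 to 2.35. With the background raised in this way, a site only modestly below the WT level could thus have gone uncalled at some of these regions. At the strongest region only a site far below the WT level could have. At the genome-wide background itself, a pileup of 6 would have been callable in each K43M list, and the ratios would be larger. Which background held in the K43M lists is not known.

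**Figure D3:**
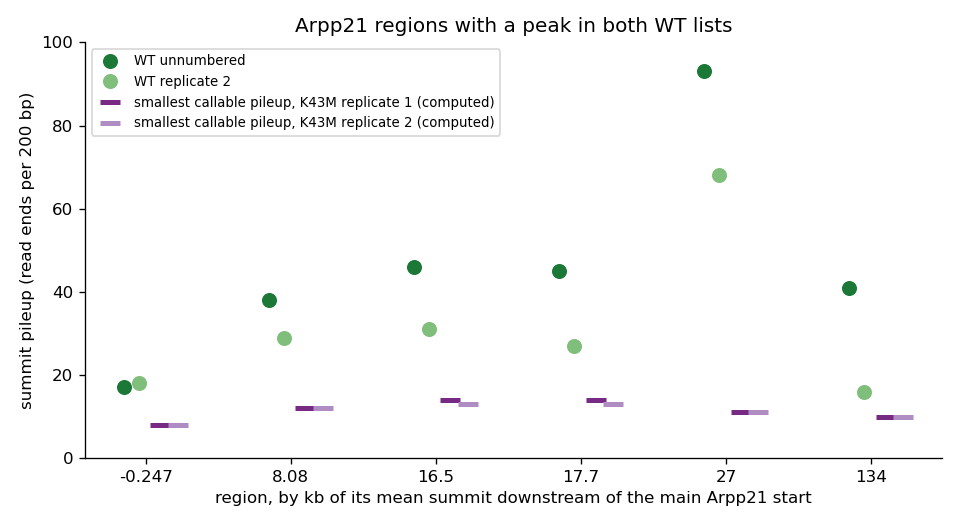
Summit pileup, in read ends per 200 bp, of the 6 *Arpp21* regions with a peak in both WT lists. Dots are the recovered pileups in the WT lists, and horizontal marks are the smallest pileups computed to be callable in each K43M list at a background raised as in the WT lists. Regions are ordered from the most upstream to the most downstream. Every WT dot lies above the marks, by the widest margin at the region 27.0 kb downstream, with 93 and 68.

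The stretch without a K43M peak reached far beyond the gene. Around the strongest region it was 1520 kb long in K43M replicate 1 and 1220 kb in K43M replicate 2. Stretches at least as long made up 0.455% of 38942 gaps between neighbouring peaks of K43M replicate 1 and 0.877% of 34663 gaps of K43M replicate 2. These shares count gaps and not bases. Long gaps hold more sequence than short ones, so the share of the genome in such stretches is larger and was not computed. The gene is also isolated in the WT lists, whose nearest peaks outside it lay 501 kb away on the side of its end in both lists, and 310 and 212 kb away on the side of its start. Because the deposited values exist only at peaks, the read background of the gene body is unknown in the K43M lists. Whether the K43M lines held the gene at full copy number was not tested.

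The local background of the window could be read only at its peaks. It ranged from 72 to 358 read ends per 10 kb (median 232) over the 11 WT unnumbered peaks and from 57 to 218 (median 180) over the 10 WT replicate 2 peaks. The 2 peaks of K43M replicate 1 had 67 and 75. Against the median over autosomal peaks of the same list (146, 126, 119 and 117 in the order of the lists), the medians differed by 0.67, 0.51 and -0.75 on the log2 scale in WT unnumbered, WT replicate 2 and K43M replicate 1. The K43M values came from peaks outside *Arpp21*. The single peak of WT replicate 2 outside the gene had 57, and thus also lay below its autosomal median. Over chromosome 9 as a whole the medians differed from the autosomal ones by -0.01 to 0.02 in all 4 lists. The part of the local background in the peak counts was not tested.

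*Mir128-2* lies at chr9:112118636-112118711 on the minus strand, in intron 19 of the main transcript (112067310 to 112119182). The nearest peak was 15.8 kb away in WT unnumbered and 17.5 kb away in WT replicate 2, downstream of the hairpin in the same intron. In the K43M lists it was 200 kb and 428 kb away, outside the gene. None of the lists had a peak at the microRNA itself. The mature miR-128-3p, whose seed CACAGUG is found in 1 of the 1679 mature mouse microRNAs of the RefSeq table, is also made from *Mir128-1* on chromosome 1. The host gene of *Mir128-1*, *R3hdm1*, had an open promoter in every list.

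The sequence at the strongest summit, printed above, was searched on both strands for the letters of 18 motifs. It held 3 E-boxes, the sites of basic helix-loop-helix factors such as the E proteins of lymphocytes. Of these, 2 were CAGCTG, 75 bp before and 12 bp after the mean summit, and 1 was CAGGTG, 66 bp after it and read on the minus strand. At least as many E-box matches were found in 0.952% of the 50867 regions of the same length, and single matches were common, with CAGCTG in 17.6% and CAGGTG in 16.1% of them. The other 16 motifs had no match in these 201 bp. They were CCCNNGGG for EBF1, GAGGAAGT for PU.1, CCGGAAGT for ETS, TGTGGTT for RUNX, TGGGAA for Ikaros, TTCNNNGAA for STAT, TAACNG for MYB, CTTTGAT for TCF, ATGCAAAT for the octamer, TGANTCA for AP-1, GAAANNGAA for IRF, TGTTTAC for FOX, AGATAA for GATA, TANNNNTA for MEF2, CCAAT for NFY and the CTCF motif. Elsewhere in the 722 bp of the whole region, the letters for ETS, MYB and MEF2 did match. The letters for ETS and PU.1 share their last 6 bases, so a sequence can match only 1 of them at a given place. The window was 59.7% G and C, above the median of 52.2% over all regions.

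The internal promoter held 4 E-box matches, 3 of CAGGTG and 1 of CAGCTG, within its 300 bases. As many were found in 0.216% of 32817 RefSeq promoter sequences, of which 20.2% held CAGGTG and 16.3% CAGCTG at least once. It contained 1 CpG and was 55.3% G and C. In 4 of the 6 shared regions every summit lay within the 201 bp searched, and there CAGCTG matched in 3 and CAGGTG in 2. The strongest region and the region at the internal start are among the 4, and their matches are those counted above. The only further site was a CAGCTG in chr9:112100870-112101219. Over all regions, with no such condition on the summits, CAGCTG matched in 17.6% and CAGGTG in 16.1%. In the other 2 of the 6 regions the summits were farther apart and none lay in the window. Neither E-box matched in those windows, so over all 6 regions CAGCTG matched in 3 and CAGGTG in 2. A match describes the letters of the sequence and does not show that a factor was bound.

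No other gene had as many peaks in the WT lists without a K43M peak. At least 3 peaks in both WT lists and 0 in both K43M lists were found in 3 genes (0.0137% of 21951), which were *Arpp21*, *Fmn1* and *Cyyr1*. *Fmn1*, which encodes the actin nucleator formin 1, had 3 and 3 peaks, and *Cyyr1* had 3 and 3. The opposite pattern was found in 8 genes (0.0364%). A gene body with at least 6 of the regions found in both WT lists only was found in 4 genes (0.0182%). Of these, *Snx29*, *Ldlrad4* and *Gm20388* also had between 7 and 106 regions shared by all 4 lists, and *Arpp21* had 0. These genes were found by the same contrast that selected *Arpp21*, and their counts are given as a description.

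The genes most like *Arpp21* by their intronic regions were taken as the hosts of the 5 next-ranked intronic regions found in both WT lists only. They were *Inpp5a*, which encodes an inositol polyphosphate phosphatase and held 2 of the regions, *Eps8*, which encodes an actin regulator, *Zfp988* and *Lrig3*. Their lower percentiles ran from 73.0 to 80.3, against 96.1 in *Arpp21*, and their fold enrichments from 9.76 to 13.9. *Inpp5a* had 3 regions found in both WT lists only, and it kept 1 peak in each K43M list. *Eps8* had 9 and 6 peaks in the K43M lists. *Zfp988* and *Lrig3* had 1 peak in each WT list and 0 in the K43M lists.

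Relatives of the gene and members of its pathway were looked at in the same way. Over all protein-coding genes, 47.6% had a promoter peak in all 4 lists. The R3H domain genes *R3hdm1*, *R3hdm2* and *R3hdm4* and the phosphoprotein genes *Arpp19* and *Ensa*, whose products inhibit a phosphatase in mitosis, had a peak at their promoter in every list (5 of 5). The same held for the protein kinase A and calmodulin genes *Prkaca*, *Prkacb*, *Prkar1a*, *Prkar1b*, *Prkar2a*, *Prkar2b*, *Calm2* and *Calm3* (8 of 8). In the bodies of these 13 genes there was no region found in both WT lists only (4.51% of all regions). Regions found in both K43M lists only (7.64% of all regions) numbered 1 in the first group and 4 in the second. Regions found in all 4 lists numbered 5 and 14. *Prkar1b*, a regulatory subunit of protein kinase A, had 5 peaks in each WT list and 10 and 7 in the K43M lists. *Prkacb*, a catalytic subunit, had 3 and 2 in the WT lists and 5 and 4 in the K43M lists.

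Promoter peaks at marker genes were compared with the label of the lines as pre/pro-B cells. The share of all protein-coding genes with an open promoter was 50.7% in WT unnumbered and 50.6% in WT replicate 2, and 54.0% and 52.6% in the K43M lists. Of 9 precursor B-cell genes, 8, 8, 8 and 6 had a promoter peak in the order of the lists, among them *Cd79a*, *Ebf1*, *Pax5*, *Vpreb1*, *Igll1* and *Blnk* in all 4. *Cd79b* and *Rag1* had none in K43M replicate 2, and *Dntt* had none in any list. Since *Arpp21* is known from thymocytes and neurons, markers of both were looked at as well. Of 10 T-cell genes 3 had a promoter peak, the same number in every list (*Lck*, *Tcf7* and *Gata3*), while *Cd3e*, *Cd3g*, *Cd4*, *Cd8a*, *Bcl11b*, *Ptcra* and *Themis* had none in any list. Of 5 neuronal genes 2, 1, 2 and 1 had one. Of 6 myeloid genes it was 2, 2, 1 and 0, where *Lyz2*, which encodes lysozyme, had a promoter peak in both WT lists and in neither K43M list, and *Csf1r*, *Mpo* and *Elane* had none in any list. The part of these differences in the *Arpp21* result was not tested.

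The protein-coding genes around *Arpp21* are distant. *Lrrfip2* had 3 peaks in each of the 4 lists. *Trank1* had none. *Pdcd6ip*, on the side of the *Arpp21* start, had 1 and 1 peaks in the WT lists and 2 and 3 in the K43M lists. *Arpp21* was thus the only one of these genes with 0 peaks in both K43M lists and a peak in the WT lists.

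**Figure D4:**
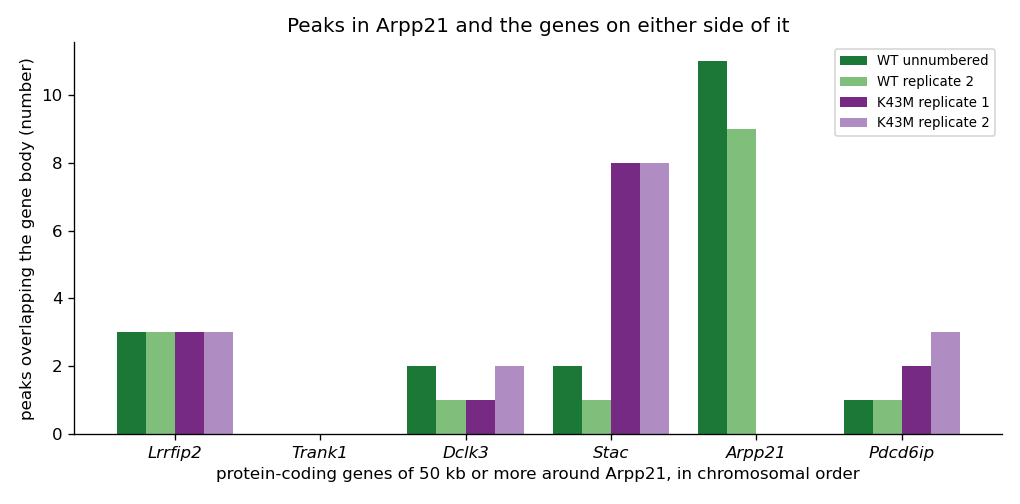
Number of peaks that overlap the gene body in each list, for *Arpp21* and the protein-coding genes of 50 kb or more around it, in chromosomal order. Bars are counts in single lists, without an error. *Arpp21* has 11 and 9 peaks in the WT lists and 0 in the K43M lists, while *Stac* has 2 and 1 in the WT lists and 8 in each K43M list.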

How the data were processed

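The deposited files were 4 lists of ATAC-seq peaks. According to the methods and the submitters' processing notes, the authors trimmed reads with Trimmomatic 0.36, mapped them to mm10 with BWA 0.7.15, removed blacklisted regions and, with SAMtools 1.3.1, reads of several positions or low quality, and called peaks in each library with MACS2 2.1.0, with read ends shifted by 100 bp and extended to 200 bp. No control and no pooling is named. For each peak the authors deposited a fold enrichment (a ratio to the background of the same library), -log10 p and -log10 q and an integer score, which was not used. Lists give no read totals, so depth is known only through the background that MACS2 used.

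Groups came from the labels for 3 lists and, for WT unnumbered, from the design text and the name of the list. Summit pileup and background were recovered from fold enrichment and -log10 p with a Poisson model, to within 0.001 in -log10 p, for 100% of the peaks. Percentiles are by -log10 q within a list. No test between libraries was made, because the gene was selected on these lists and each genotype has 2. Named genes were those in the window, the R3H and ARPP relatives, the protein kinase A and calmodulin genes, the cell type markers and the hosts of the 5 next-ranked intronic regions. Some genes of these lists are not reported here, and counts leave them out. *Fmn1*, *Cyyr1*, *Snx29*, *Ldlrad4*, *Gm20388* and the flanking genes outside the window were chosen after their values were seen. The gene, the lists and the motifs were chosen with earlier results of these data known. Sequences are from RefSeq GRCm38.p6. The code was tested on simulated peak lists with known answers. Tools were Python 3.11.15, scipy 1.17.1, numpy 2.4.6, pysam 0.24.0, pandas 2.3.3 and matplotlib 3.10.9. Expression and CDK6 binding data were not used here.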

Additional observations from a re-analysis of the deposited data

How the results depend on the processing

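Of 56 values recomputed under other settings, 46 stayed within their limits, 10 did not, and 0 turned their direction. The limits were 1.5 times the reported count, or the SD of the WT lists for the log2 background. Counts and ranks cannot turn their direction. The difference in lists at the intronic region could not either, since the region was chosen without a K43M peak and no setting adds one. Only the log2 background could have turned. Several other counts rest on the same choice of the gene, so these numbers do not measure how stable the pattern is. With 1 list left out at a time, the regions found in WT lists only numbered 6 to 11 in the window (10 without WT unnumbered, 11 without WT replicate 2) and 6 to 11 in the gene body (9 and 11). The number of WT lists minus K43M lists with a peak at the intronic region was 1 to 2, the regions of K43M lists only 0 to 2 (2 without K43M replicate 2), all regions 12 to 14 and those in every list 0. These changes follow from the fewer lists that a region must be found in. Over the genome, the share of regions in WT lists only was 11.5% without WT unnumbered and 11.4% without WT replicate 2. The share in K43M lists only was 19.5% without K43M replicate 2. Ranked by recovered summit pileup, the intronic region came at place 4. With protein-coding transcripts alone, 7 of 11 starts had a peak in the promoter window. Within 50 bp of the summit 1 motif match was found, and 9 in the whole region, which follows from the length searched. The local background could not be computed over regions found in all 4 lists, since the window has 0 of them. No paired analysis was possible because no result comes from a test. Peak lists limit what can be said below the calling threshold.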

Other observations

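*Stac*, the nearest protein-coding neighbour of *Arpp21*, whose product is an adaptor protein with an SH3 domain, showed the opposite pattern of peaks. It lies 375 kb from *Arpp21* at chr9:111561437-111690348, outside the window, and was looked at after its values were seen. The gene body held 2 and 1 peaks in the WT lists and 8 and 8 in the K43M lists. Its promoter had a peak in both K43M lists, at chr9:111689689-111690845 with a fold enrichment of 7.86 and 7.91, and none in the WT lists. In all, 6 regions of the gene had a peak in both K43M lists and in neither WT list. Over the genome 7.64% of regions had this pattern, against 4.51% with the opposite one. At chr9:111562455-111563708, 1 region had a peak in all 4 lists (41.2% of all regions), with a fold enrichment of 6.94, 7.62, 6.11 and 6.58.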
